A study of Mus musculus with 6 samples.

Results

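Fbxo32, Fbxo40, Trim54, Trim55, Trim63, Asb2, Klhl30, Klhl31, Klhl40 and Klhl41 encode ubiquitin ligases, substrate receptors of such ligases and kelch-repeat proteins of skeletal and cardiac muscle. These 10 genes were taken by name from the 17558 genes of the deposited table, after NCBI gene numbers had been matched to symbols and values had been summed over transcripts. RNA was sequenced in 6 libraries of C2C12 cells, an immortalized mouse myoblast line whose cells fuse into multinucleated myotubes when serum is reduced. Each of the 3 groups held 2 libraries, and every culture had been kept in differentiation medium with horse serum, insulin, transferrin and selenium for 48 h before harvest. Control cells stably expressed a non-targeting scrambled hairpin RNA (shScr). The remaining cells stably expressed a hairpin against Pkm1 (shPkm1) or Pkm2 (shPkm2), which are the splice forms of the pyruvate kinase gene Pkm. All 6 libraries carried the same genotype label, wild type, so the groups differed by hairpin alone according to the labels. The design text names the roles of Pkm1 and Pkm2 in myoblast differentiation as the question. Whether a hairpin line was 1 clone or a pool, and whether the 2 libraries of a group came from separate cultures, was not stated. The p-values therefore measure only the spread between these libraries, which may be technical.

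Ubiquitin ligases mark proteins for degradation or change their activity by attaching ubiquitin. Fbxo32 (atrogin, or MAFbx) and Fbxo40 are F-box proteins that bring substrates to ligases built on the cullin Cul1, Asb2 does so for ligases built on Cul5 through its SOCS box, and many BTB-kelch proteins do so for ligases built on Cul3, whereas Trim63, Trim55 and Trim54 (the MuRF proteins) carry their own RING finger and bind the sarcomere. In muscle, Fbxo32 and Trim63 are best known as genes induced during atrophy, and Klhl40 and Klhl41 as proteins that stabilize thin filament components and are mutated in nemaline myopathy.

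Libraries held 18216896 to 19796036 estimated counts, and log2 CPM of replicates (counts scaled to library size) correlated across genes at 0.988 in shScr, 0.994 in both hairpin groups. Genes are not independent replicates, so these values only describe the pairs. The 2 shScr libraries differed most, with a chi-square per degree of freedom of 30.8 against 5.94 in shPkm1 and 6.66 in the shPkm2-labelled libraries. Pkm itself was lower in shPkm1 than in the control, with a log2 difference of -0.63 (SE 0.133; edgeR's quasi-likelihood test, Benjamini-Hochberg adjusted p 0.00107). In the shPkm2-labelled libraries Pkm stood at 0.20 (SE 0.133, adjusted p 0.198). With limma on log2(TPM + 1) the first value was -0.24 and not called (adjusted p 0.124), and the second was 0.66 and called (adjusted p 0.000666). The Pkm1 transcript was at 546 and 589 TPM (a level scaled to transcript length and to the sum of each library) in shScr, 243 and 218 in shPkm1, and 254 and 254 in the shPkm2-labelled libraries. The Pkm2 transcript was at 1073 and 1517 TPM in shScr, 1278 and 1379 in shPkm1, and 2700 and 2630 in the shPkm2-labelled libraries, so the labelled target was not lower there, and every direction given for that group is a direction for libraries with that label.

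Of the 10 genes, 9 had enough counts to be tested. In shPkm1 all 9 were called lower than in shScr at an adjusted p under 0.05, where 31.4% of the 12643 genes tested were called lower, 31.8% were called higher and 63.1% were called in either direction. In the shPkm2-labelled libraries, 8 of the 9 were lower than in shScr and 1, Fbxo32, was not called; the background was 34.2% lower, 33.9% higher and 68.0% in either direction. The median log2 fold change of the 9 genes was -1.65 in shPkm1 and -5.34 in the shPkm2-labelled libraries, beside medians of 0 and 0.01 over all genes tested. Falls of at least 8-fold were seen for 1 of the 9 genes in shPkm1, against 1.31% of all genes tested, and for 6 of the 9 in the shPkm2-labelled libraries, against 3.91%. When the hairpin groups were compared directly, 8 of the 9 were lower and 1 was higher in the shPkm2-labelled libraries than in shPkm1, with backgrounds of 27.3% lower, 25.7% higher and 53.0% in either direction. Of these, 4 fell at least 8-fold, against 3.95% of all genes. Both comparisons with shScr use the same control libraries, so the values of the 2 comparisons are not independent. These are bulk libraries, in which fewer cells of a type and less RNA per cell cannot be told apart.

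**Figure D1:**
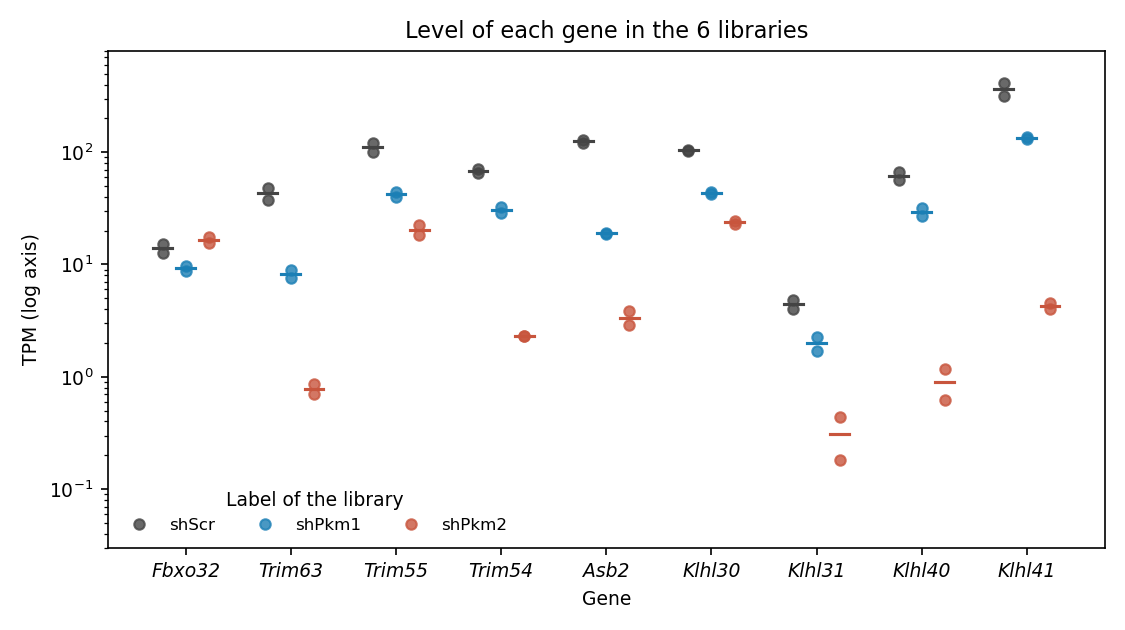
Level of each tested gene in TPM (log axis) in the 2 libraries of each label, shScr (grey), shPkm1 (blue) and shPkm2 (red); points are libraries and bars are group means. Klhl41 ran from 413.58 TPM in an shScr library to 4.01 in an shPkm2-labelled library, while Fbxo32 stayed between 8.74 and 17.6 in all 6.

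Sequence upstream of the start sites is shown for 4 genes that were lower in both hairpin groups, though to different extents, because each window holds a motif bound by a muscle or atrophy regulator; they were chosen with their values and matches known. RefSeq promoter sequences (build GRCm38.p6) were at hand for 7 of the 10 genes, namely Asb2, Fbxo40, Klhl31, Klhl40, Klhl41, Trim54 and Trim63. Each run below covers the 250 bases before the start site on the strand of the gene, printed 5′ to 3′. Capitals mark every match, on either strand, to the E-box CANNTG, to the MEF2 and CArG motifs, or to the FOXO motif GTAAACA. The windows are Klhl41 at chr2:69669870-69670119 (plus strand), Trim63 at chr4:134314870-134315119 (plus strand), Trim54 at chr5:31116362-31116611 (plus strand) and Asb2 at chr12:103356002-103356251 (minus strand).
Klhl41: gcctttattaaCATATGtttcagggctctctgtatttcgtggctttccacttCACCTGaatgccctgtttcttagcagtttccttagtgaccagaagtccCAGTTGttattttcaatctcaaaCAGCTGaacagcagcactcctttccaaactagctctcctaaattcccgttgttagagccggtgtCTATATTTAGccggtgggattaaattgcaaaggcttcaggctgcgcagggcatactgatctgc
Trim63: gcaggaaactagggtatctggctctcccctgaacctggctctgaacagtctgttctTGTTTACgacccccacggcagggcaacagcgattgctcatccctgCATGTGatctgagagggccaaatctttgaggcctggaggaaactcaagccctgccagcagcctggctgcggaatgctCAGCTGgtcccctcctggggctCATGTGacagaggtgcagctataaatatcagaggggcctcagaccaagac
Trim54: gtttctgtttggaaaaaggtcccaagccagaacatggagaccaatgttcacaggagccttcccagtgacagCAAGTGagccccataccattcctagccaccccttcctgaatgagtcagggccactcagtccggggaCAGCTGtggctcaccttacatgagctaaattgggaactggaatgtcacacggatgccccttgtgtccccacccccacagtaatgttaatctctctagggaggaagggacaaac
Asb2: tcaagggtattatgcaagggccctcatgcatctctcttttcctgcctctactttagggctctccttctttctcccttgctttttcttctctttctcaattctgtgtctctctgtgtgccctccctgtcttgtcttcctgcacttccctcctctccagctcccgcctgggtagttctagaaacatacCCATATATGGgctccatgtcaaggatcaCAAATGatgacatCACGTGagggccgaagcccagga

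The E-box form CAGCTG, which myogenic bHLH factors such as Myod1 and Myog are known to bind and which is contained in the general E-box, lay in the windows of Klhl41, Trim63, Trim54, Klhl40 and Fbxo40 and not in those of Asb2 and Klhl31. It was present in 13.0% of the 32851 promoter windows of the same length, and any E-box in 66.2%. In Klhl41 the CAGCTG lay from -127 to -122 relative to the start, in Trim63 from -72 to -67, in Trim54 from -113 to -108 and in Klhl40 from -10 to -5. The Klhl40 window ends at the transcript start 121777607, which lies inside the RefSeq range of the gene given below. The GENCODE models of the main transcripts start further downstream than the starts used here. They begin at 121777691 rather than 121777607 for Klhl40, and at 31116712 rather than 31116612 for Trim54. Relative to those starts the matches lie further upstream. A MEF2 match, a motif in 2.92% of windows, lay in Klhl41 from -63 to -54 and in Fbxo40, the gene too low to test, from -101 to -92 relative to a start at 36990467. Asb2 held a CArG match, the motif of serum response factor, from -64 to -55, against 1.47% of windows. A second Asb2 start site in the RefSeq table, with its window at chr12:103338391-103338640, had no match to any of the motifs searched. The Klhl31 window had no match to any of them either. Trim63 held a FOXO match from -194 to -188, against 3.17%. The MCAT motif CATTCC, a motif of TEAD factors in 12.6% of windows, matched at 2 places in Trim54 and at 1 in Trim63 and is not marked above. These matches describe letters in the windows; no binding was measured.

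The RING-finger genes of the MuRF group fell to very different extents. Trim63 (MuRF1), the atrophy-associated ligase of thick filament proteins, lies on chromosome 4 from 134315120 to 134329629 (plus strand; RefSeq, GRCm38.p6, as for the positions that follow). It was at 47.98 and 37.87 TPM in shScr, 7.55 and 8.93 in shPkm1, and 0.7 and 0.86 in the shPkm2-labelled libraries. The 3 groups did not overlap, and the last pair rested on 14 and 18 counts against 1071 and 838 in shScr. In shPkm1, Trim63 was 6.85-fold lower than in shScr (log2 fold change -2.78, SE 0.175, adjusted p 3.45e-08, edgeR). The shPkm2-labelled libraries were 75.2-fold lower than shScr (-6.23, SE 0.245, adjusted p 1.53e-10), and 134 of the 12643 genes tested had a lower log2 fold change.

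Trim54 (MuRF3), a microtubule- and sarcomere-associated ligase, lies on chromosome 5 from 31116612 to 31137626 (plus strand). Its level was 71.22 and 64.8 TPM in shScr, 28.99 and 32.26 in shPkm1, and 2.29 and 2.32 in the shPkm2-labelled libraries. Replicates lay close together, within 1.11-fold of each other in every group. The fall was 2.92-fold in shPkm1 (log2 fold change -1.54, SE 0.127, adjusted p 3.52e-07, edgeR) and 40.4-fold in the shPkm2-labelled libraries (-5.34, SE 0.173, adjusted p 2.69e-11). On the plain TPM scale the corresponding ratios of group means were smaller, at 2.22 and 29.6. The fit scales libraries by the trimmed mean of M values, and TPM values were taken as deposited. Trim54 shares 382 exonic bases with the antisense gene Gm15469, and Fbxo32 shares 186 with Gm15943. Since the strandedness of the libraries was not given in the sources used here, reads of either strand could not be separated there.

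Trim55 (MuRF2), the paralog that also binds titin and microtubules, lies on chromosome 3 from 19644344 to 19692584 (plus strand). It was the MuRF gene that kept the highest level, with 120.86 and 99.86 TPM in shScr, 44.12 and 39.99 in shPkm1, and 22.44 and 18.28 in the shPkm2-labelled libraries. The groups were separate. Trim55 fell 3.47-fold in shPkm1 (log2 fold change -1.80, SE 0.14, adjusted p 2.25e-07, edgeR) and 7.33-fold in the shPkm2-labelled libraries (-2.87, SE 0.148, adjusted p 1.84e-09). Trim55 exceeded Trim54 by 1.70 and 1.54 times in TPM in the shScr libraries and by 1.52 and 1.24 times in shPkm1. That ratio was 9.8 and 7.88 in the shPkm2-labelled libraries, so the make-up of the MuRF group there was mainly Trim55.

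The table lists 4 RefSeq transcripts of Trim55, and the 2 more abundant ones had unequal ratios between shScr and the shPkm2-labelled libraries. The predicted transcript XM_006535490.3 averaged 90.1 ± 12.6 TPM in shScr (SD, n = 2), then 33.9 ± 3.27 in shPkm1 and finally 18.5 ± 3.0 in the shPkm2-labelled libraries, a ratio of 4.87 between the first and the last. The curated transcript NM_001081281.1 was at 17.2 ± 1.82, 6.87 ± 1.22 and 1.39 ± 0.665 TPM in the same order, a ratio of 12.4. Its share of the Trim55 counts was 12.4% and 12.94% in shScr, 10.98% and 15.77% in shPkm1, and 3.24% and 8.08% in the shPkm2-labelled libraries, where both values lay below all others. The division of counts between transcripts of a gene rests on the authors' estimation, and the difference was not tested.

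**Figure D2:**
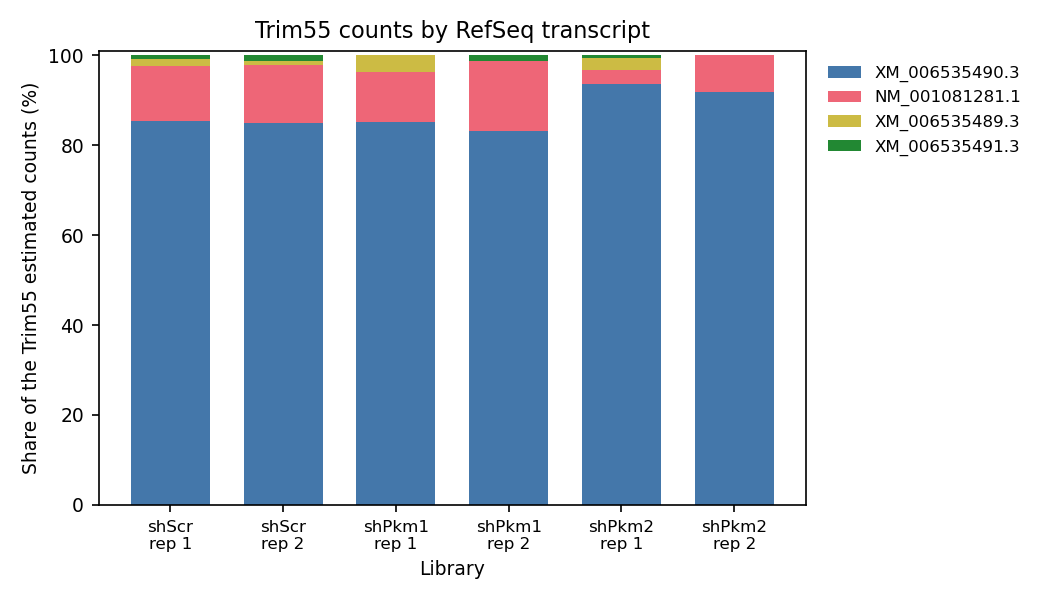
Share of the Trim55 estimated counts (%) assigned to each of the 4 RefSeq transcripts in each of the 6 libraries. The curated transcript NM_001081281.1 takes 3.24% and 8.08% in the shPkm2-labelled libraries and 10.98% to 15.77% in the other 4.

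The F-box gene Fbxo32 was the 1 tested gene not called lower than shScr in the shPkm2-labelled libraries. Fbxo32, the substrate receptor induced with Trim63 in wasting muscle, lies on chromosome 15 from 58175879 to 58214892 (minus strand). It was at 12.64 and 15.31 TPM in shScr, 9.75 and 8.74 in shPkm1, and 17.6 and 15.53 in the shPkm2-labelled libraries. The shPkm1 libraries were the lowest, and the shPkm2-labelled libraries lay just above the shScr libraries in TPM. Fbxo32 fell 1.98-fold in shPkm1 (log2 fold change -0.98, SE 0.1, adjusted p 2.51e-06, edgeR). For the shPkm2-labelled libraries against shScr the value was -0.21 (SE 0.0976, 95% interval -0.42 to 0, adjusted p 0.0763), which did not pass the threshold and does not show that the levels were equal. The sign of this value turned with the scaling: it was 0.12 (adjusted p 0.354) when libraries were scaled by their totals. Without the first shScr library it was -0.26 and passed, with an adjusted p of 0.0307. The hairpin groups differed from each other, with Fbxo32 1.71-fold higher in the shPkm2-labelled libraries than in shPkm1 (0.78, SE 0.1, adjusted p 2.27e-05).

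The 2 atrophy genes stood in a different order in the different groups. Trim63 stood at 3.8 and 2.47 times the TPM of Fbxo32 in the shScr libraries and at 0.774 and 1.02 times in shPkm1. The order was the opposite in the shPkm2-labelled libraries, where Fbxo32 stood at 25.1 and 18.1 times the TPM of Trim63. Fbxo40, the F-box protein that directs the insulin signalling adaptor Irs1 to degradation, was close to the detection limit throughout, on chromosome 16 from 36963461 to 36990530. It had 5 and 5 counts in shScr, 2 and 4 in shPkm1, and 0 and 1 in the shPkm2-labelled libraries, and it was left out of the test by the filter on low counts. Counts up to 3 were taken as the floor of detection, which covers counting error only, so no fold is given. Without the filter its adjusted p against shScr was 0.462 in shPkm1 and 0.0321 in the shPkm2-labelled libraries, which rests on at most 5 counts per library.

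Asb2, the SOCS-box receptor that targets filamins for degradation during muscle differentiation, had the largest fitted fall of the 9 genes in shPkm1, with an interval that overlapped that of Trim63. It lies on chromosome 12 from 103321142 to 103356001 (minus strand). Its level was 128.5 and 120.51 TPM in shScr, 19.25 and 18.84 in shPkm1, and 3.83 and 2.89 in the shPkm2-labelled libraries. The groups were far apart compared with the spread inside them. Asb2 was 8.6-fold lower in shPkm1 than in shScr (log2 fold change -3.10, SE 0.125, adjusted p 4.34e-10, edgeR), and 160 of the 12643 genes had a lower value. In the shPkm2-labelled libraries it was 51.1-fold lower than in shScr (-5.67, SE 0.15, adjusted p 6.06e-12) and 5.94-fold lower than in shPkm1 (-2.57, SE 0.149, adjusted p 1.23e-08). In order of level, Asb2 held the place after Klhl41 in both shScr libraries. In both shPkm1 libraries it had also dropped behind Trim55, Klhl30, Trim54 and Klhl40.

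The kelch genes Klhl41 and Klhl40 had the largest fitted falls in the shPkm2-labelled libraries, but the 95% intervals of both overlapped that of Trim63. Klhl41, which binds and stabilizes nebulin, lies on chromosome 2 from 69670120 to 69684239 (plus strand) and was the most abundant of the 10 genes in shScr. It was at 413.58 and 314.31 TPM in shScr, 132.1 and 135.21 in shPkm1, and 4.54 and 4.01 in the shPkm2-labelled libraries. The falls were 3.6-fold in shPkm1 (log2 fold change -1.85, SE 0.154, adjusted p 4.04e-07, edgeR) and 118-fold in the shPkm2-labelled libraries (-6.88, SE 0.205, adjusted p 1.18e-11). In the latter comparison 95 of the 12643 genes tested had a lower value. Klhl40, which stabilizes nebulin and leiomodin 3, lies on chromosome 9 from 121777499 to 121791200 (plus strand). It was at 66.04 and 56.54 TPM in shScr, 27.18 and 31.55 in shPkm1, and 1.18 and 0.62 in the shPkm2-labelled libraries. The last pair rested on 31 and 17 counts, and it was the pair in which the replicates of Klhl40 differed most, by 1.9-fold. In shPkm1, Klhl40 fell 2.75-fold (-1.46, SE 0.151, adjusted p 2.93e-06). In the shPkm2-labelled libraries it fell 94.2-fold against shScr (-6.56, SE 0.228, adjusted p 4.72e-11) and 34.3-fold against shPkm1 (-5.10, SE 0.234, adjusted p 1.16e-09). Exons of Klhl40 overlap the opposite-strand gene Gm47108 over 540 bases.

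Klhl30 and Klhl31 fell less in the shPkm2-labelled libraries. Klhl30, a kelch protein enriched in muscle, lies on chromosome 1 from 91351073 to 91362404 (plus strand). It was at 105.31 and 102.48 TPM in shScr, 42.63 and 44.07 in shPkm1, and 24.24 and 23.16 in the shPkm2-labelled libraries, with replicates within 1.05-fold. It fell 3.15-fold in shPkm1 (log2 fold change -1.65, SE 0.106, adjusted p 3.96e-08, edgeR) and was 6.03-fold below shScr in the shPkm2-labelled libraries (-2.59, SE 0.111, adjusted p 3.29e-10). Klhl31, a kelch protein of heart and skeletal muscle, lies on chromosome 9 from 77636732 to 77660125 (plus strand) and was the lowest of the tested genes in shScr. It was at 4.81 and 4.04 TPM in shScr, 2.28 and 1.69 in shPkm1, and 0.44 and 0.18 in the shPkm2-labelled libraries. Groups were separate, but the last pair differed 2.44-fold and rested on 30 and 13 counts. The fall was 2.96-fold in shPkm1 (-1.56, SE 0.213, adjusted p 3.22e-05) and 19.7-fold in the shPkm2-labelled libraries (-4.30, SE 0.276, adjusted p 1.67e-08). Leaving out the first shPkm2-labelled library moved the latter value to -5.01, and the value against shPkm1 from -2.74 to -3.45.

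**Figure D3:**
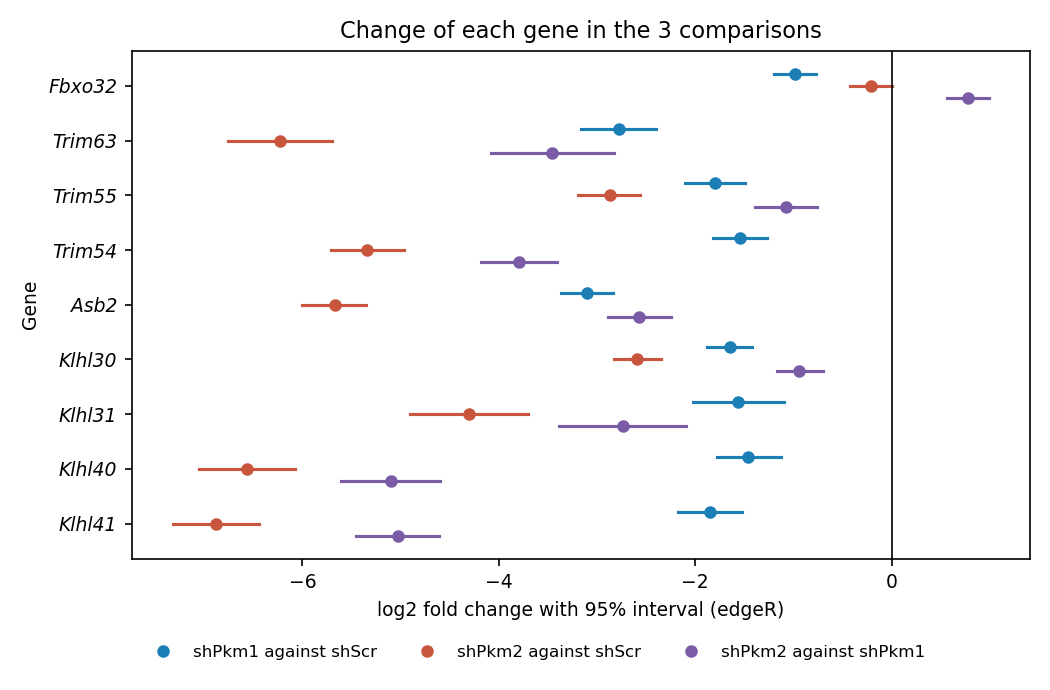
Log2 fold change (edgeR) of each tested gene with its 95% interval for shPkm1 against shScr (blue), shPkm2-labelled libraries against shScr (red) and shPkm2-labelled libraries against shPkm1 (purple). Fbxo32 alone has a red interval that reaches 0 and a purple value above 0, at 0.78.

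The makeup of the group differed between the shPkm2-labelled libraries and the rest. The TPM of the 10 genes summed to 971.1 and 815.8 in shScr, 313.9 and 321.4 in shPkm1, and 77.3 and 67.9 in the shPkm2-labelled libraries. Klhl41 took 42.6% and 38.5% of that sum in shScr and 42.1% in each shPkm1 library, but 5.88% and 5.91% in the shPkm2-labelled libraries. The largest shares in the shPkm2-labelled libraries were those of Klhl30 (31.4% and 34.1%), Trim55 (29.0% and 26.9%) and Fbxo32 (22.8% and 22.9%). In shScr their shares were 10.8% and 12.6% for Klhl30, 12.4% and 12.2% for Trim55, and 1.3% and 1.88% for Fbxo32. The order of levels in shScr was Klhl41, Asb2, then Trim55 and Klhl30, which exchanged places between the 2 libraries, then Trim54, Klhl40, Trim63, Fbxo32, Klhl31 and Fbxo40 in both. The levels of Asb2 and Trim55 overlapped there, as did those of Trim54 and Klhl40, so these neighbours did not differ beyond their spread. In both shPkm2-labelled libraries it opened with Klhl30, Trim55, Fbxo32, Klhl41, Asb2 and Trim54, and Klhl40 and Trim63 exchanged places after that. Klhl41 exceeded Klhl30 by 3.93 and 3.07 times in shScr and by 3.1 and 3.07 times in shPkm1, whereas Klhl30 exceeded Klhl41 by 5.34 and 5.78 times in the shPkm2-labelled libraries.

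**Figure D4:**
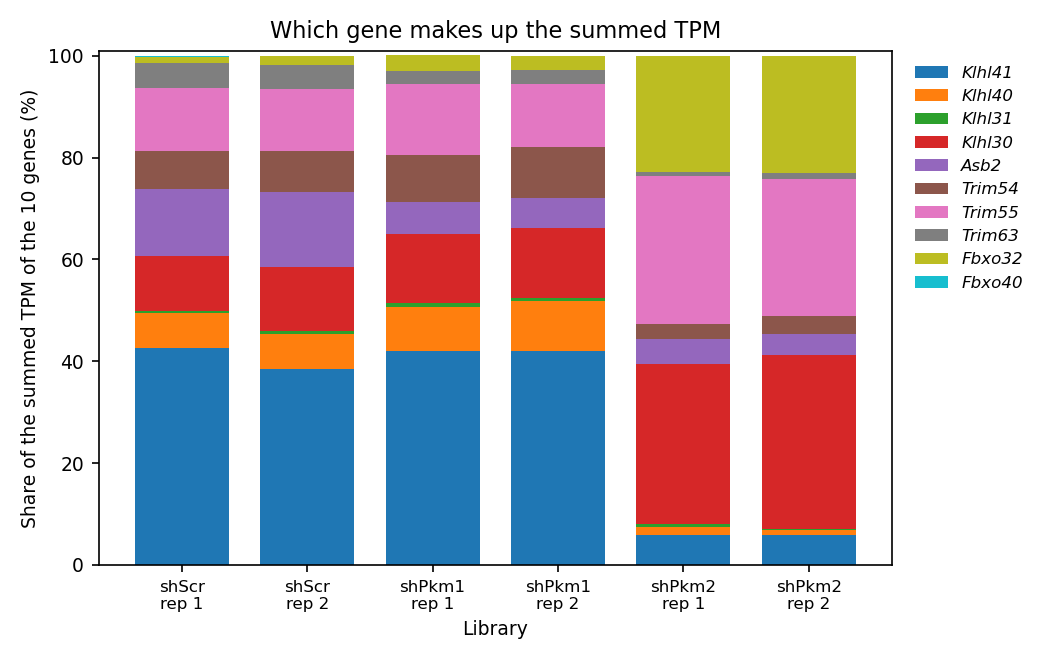
Share (%) of each gene in the summed TPM of the 10 genes, by library. Klhl41 makes up 38.5% to 42.6% in the shScr and shPkm1 libraries and 5.88% and 5.91% in the shPkm2-labelled libraries, where Klhl30, Trim55 and Fbxo32 fill most of the bar.

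Other genes of the same symbol families were mostly not lower to this extent, with exceptions. The lowest value among the other Asb genes was -3.57 in shPkm1 and -8.98 in the shPkm2-labelled libraries, below Asb2 in both. In shPkm1 the lowest among the other Trim genes was -3.22, below all 3 MuRF genes. In the shPkm2-labelled libraries the lowest among the other Klhl genes was -3.16, below Klhl30. Among 38 other tested Trim genes, 13 were lower and 12 higher than shScr in shPkm1, and 17 were lower and 15 higher in the shPkm2-labelled libraries, with medians of -0.13 and -0.07. The 22 other Klhl genes gave 6 lower and 4 higher in shPkm1 and 8 lower and 6 higher in the shPkm2-labelled libraries (medians -0.03 and -0.09). The 29 other Fbxo genes gave 10 lower and 5 higher, then 7 lower and 9 higher (medians 0.07 and 0.12), and the 10 other Asb genes gave 6 lower and 1 higher, then 8 lower and 0 higher (medians -0.59 and -0.77). With library totals as the scaling the medians of the Trim and Klhl families turned positive, at 0.07 and 0.25 for Trim and 0.17 and 0.24 for Klhl, while those of Asb stayed negative. The balance of calls changed with them: in shPkm1 and then in the shPkm2-labelled libraries, Trim gave 11 lower and 13 higher, then 13 lower and 18 higher. Klhl then gave 3 lower and 6 higher, then 6 lower and 10 higher, Fbxo 3 lower and 11 higher, then 2 lower and 15 higher, and Asb 4 lower and 1 higher, then 6 lower and 2 higher. With limma on log2(TPM + 1) Klhl gave 2 lower and 9 higher, then 4 lower and 10 higher, and Asb 3 lower and 2 higher, then 5 lower and 2 higher. Trim72 (MG53), a muscle protein of membrane repair, was the Trim gene that fell most in the shPkm2-labelled libraries, from 134.66 and 110.91 TPM in shScr to 1.05 and 0.74 (log2 fold change -7.47, SE 0.205, adjusted p 7.99e-12, edgeR). Its value exceeded in size those of all 3 MuRF genes.

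**Figure D5:**
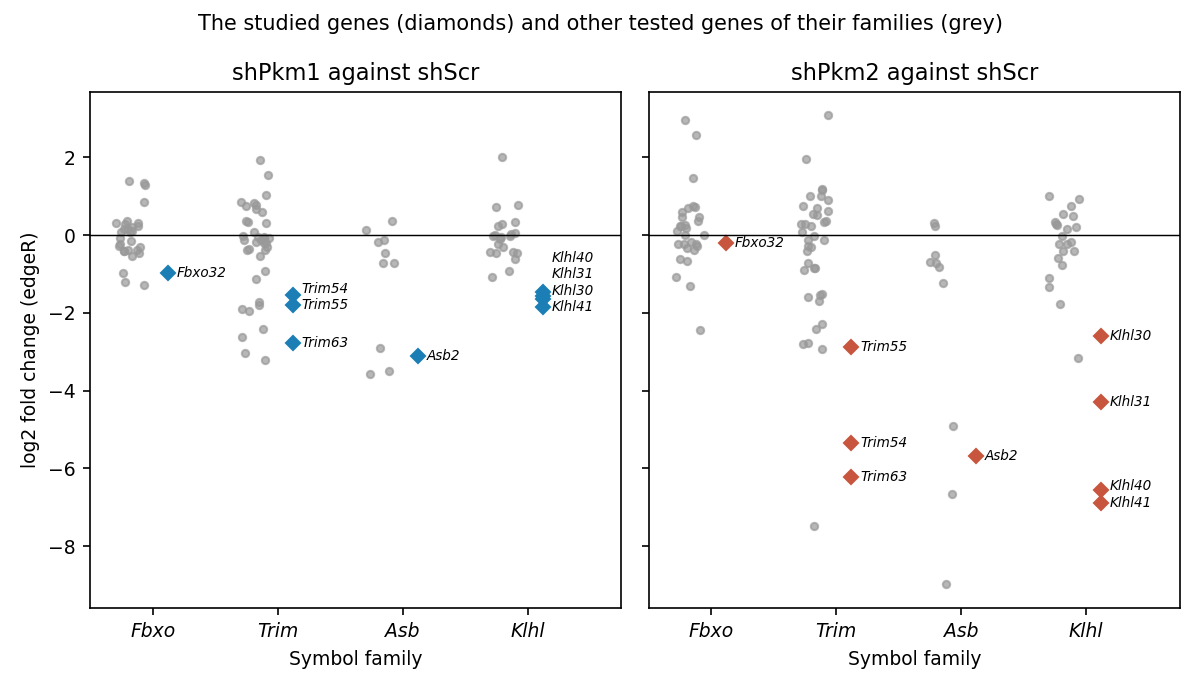
Log2 fold change (edgeR) of the studied genes (diamonds) and of the other tested genes of the Fbxo, Trim, Asb and Klhl families (grey points) for shPkm1 (left) and the shPkm2-labelled libraries (right), each against shScr. In the right panel Trim54, Asb2, Trim63, Klhl40 and Klhl41 lie between -5.34 and -6.88, and of the grey points Trim72, Asb10 and Asb16 lie below Trim54.

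The falls of the studied genes were set beside those of a general list of sarcomere genes, which were not chosen as binding partners of their proteins. All 37 sarcomere genes of a list of thick and thin filament, Z-disc and M-band genes were lower than shScr in both hairpin groups, with medians of -1.91 in shPkm1 and -7.30 in the shPkm2-labelled libraries. In shPkm1 this was 36 of 37 with library totals and 35 of 37 with limma on log2(TPM + 1), and with the latter the medians were -1.37 in shPkm1 and -5.03 in the shPkm2-labelled libraries. In the shPkm2-labelled libraries, 22 of the 37 had a lower log2 fold change than Klhl41, 25 a lower one than Klhl40 and 26 a lower one than Trim63. For Trim55 this number was 35 and for Klhl30 it was 36, so nearly the whole list lay below these 2 genes. In shPkm1 the order was different: 5 sarcomere genes lay below Asb2 and 6 below Trim63, but 28 lay below Klhl40.

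Known substrates and partners of the 10 genes did not move in one direction. Of 17 tested, 12 were lower and 2 higher in shPkm1 (median -0.81), and 12 were lower and 4 higher in the shPkm2-labelled libraries (median -1.95); the list shares members with the sarcomere list. With library totals 12 were lower and 4 higher, then 11 lower and 4 higher, and with limma on log2(TPM + 1) 10 lower and 4 higher, then 10 lower and 5 higher, with medians of -0.36 and -1.49. Nebulin (Neb), the thin filament partner of Klhl40 and Klhl41, had log2 fold changes of -1.09 (SE 0.208, adjusted p 0.000504) and -6.01 (SE 0.278, adjusted p 6.75e-10) in the 2 comparisons. Leiomodin 3 (Lmod3), the actin nucleator stabilized by Klhl40, stood at -1.54 and -6.66 (adjusted p 8.97e-06 and 1.96e-10). The values of Klhl40 itself were -1.46 and -6.56, beside those of Lmod3 in both comparisons. Nrap, a scaffold of myofibril assembly bound by Klhl41, was lower by the same test, at -2.36 and -4.09. Flna, an actin crosslinker and target of Asb2, was higher in both groups, at 0.98 (adjusted p 0.000102) and 0.92 (adjusted p 0.000132), whereas Asb2 was lower in both. Irs1, the substrate of Fbxo40, was higher at 0.70 and 0.92 (adjusted p 0.000572 and 4.69e-05). Eif3f, a translation factor targeted by Fbxo32, was lower at -0.74 and -0.65 (adjusted p 5.76e-05 and 0.000119), a fall not called with limma on TPM in the shPkm2-labelled libraries. These are RNA levels, and the proteins were not measured.

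The cullin machinery was measured with 21 tested genes, a general list that also holds cullins other than Cul1, Cul3 and Cul5. Of these, 7 were higher and 5 lower in shPkm1, and 10 were higher and 9 lower in the shPkm2-labelled libraries, with medians of -0.06 and 0.17. With library totals the counts were 8 higher and 3 lower, then 11 higher and 4 lower, and with limma on log2(TPM + 1) 13 higher and 3 lower, then 12 higher and 2 lower. The median in shPkm1 turned to 0.14 and 0.32 under these scalings. The cullins of the 3 receptor classes were all higher: Cul1, used by Fbxo32, stood at 0.77 and 0.54 (adjusted p 3.79e-05 and 0.000565), Cul3, used by kelch proteins, at 0.63 and 0.41 (adjusted p 0.000163 and 0.00353), and Cul5, used by Asb2, at 0.30 and 0.53 (adjusted p 0.0259 and 0.000604). These 6 calls also held under the library-total and TPM scalings. Rnf7, the RING partner of Cul5, and Cand2, a cullin exchange factor of muscle, were lower. Rnf7 stood at -1.04 and -1.64 (adjusted p 2.51e-06 and 2.19e-08), and Cand2 at -1.17 and -2.14 (adjusted p 7.89e-07 and 1.7e-09). Eloc, Cul4b and Dcun1d1 were higher by the same edgeR test. Eloc stood at 0.734 and 0.511 (adjusted p 0.00027 and 0.00321) and Cul4b at 0.482 and 1.315 (adjusted p 0.000992 and 7.88e-08). Dcun1d1 stood at 0.499 and 0.555 (adjusted p 0.00335 and 0.00127).

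Among 25 tested transcriptional regulators linked to these genes, 9 were lower and 6 higher in shPkm1 and 12 were lower and 5 higher in the shPkm2-labelled libraries. With library totals 7 were lower and 9 higher, then 11 lower and 8 higher, and with limma on log2(TPM + 1) 7 lower and 12 higher, then 9 lower and 10 higher. Foxo1 and Foxo3, the forkhead factors known to induce Fbxo32 and Trim63 in atrophy, were not called in either comparison. Foxo1 stood at -0.01 and -0.15 (adjusted p 0.953 and 0.198), and Foxo3 at 0.15 and 0.05 (adjusted p 0.22 and 0.655). Foxo3 was called higher in both with library totals, at 0.34 and 0.38, and with limma on log2(TPM + 1), at 0.47 and 0.45 (adjusted p 0.0132 and 0.0135). With the latter Foxo1 was also called higher in shPkm1, at 0.36. Foxo6 was lower, at -1.53 and -3.48 (adjusted p 6.22e-07 and 4.27e-10). Nr3c1, the glucocorticoid receptor that induces both atrophy genes, was higher at 1.15 and 0.85 (adjusted p 3.88e-06 and 3.99e-05). Klf15, a glucocorticoid-induced factor of the same programme, had 4 and 1 counts in shScr, 37 and 45 in shPkm1, and 0 and 1 in the shPkm2-labelled libraries. It was called higher in shPkm1 (adjusted p 4.95e-05). Whether this relates to the levels of Fbxo32 or Trim63 was not tested. The myogenic factors did not move in one direction: Myod1 stood at -0.90 and -2.22 (adjusted p 8.09e-06 and 1.19e-09) and Myog at -0.94 and -5.35 (adjusted p 3.19e-05 and 1.06e-11), while Myf5, a factor of myoblasts, stood at 0.25 (adjusted p 0.0588) in shPkm1 and was higher at 1.74 (adjusted p 9.39e-09) in the shPkm2-labelled libraries. Myf5 was also called higher in shPkm1 with library totals, at 0.45 (adjusted p 0.0057), and with limma on log2(TPM + 1), at 0.60 (adjusted p 0.00173). Mef2c fell by 2.25 and 6.02, but its shScr libraries held 367 and 97 counts and so differed widely.

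The summed level of muscle markers moved with the group. Over 9 genes of myoblasts and myotubes, TPM ran from 20711.5 to 26493.29 in shScr, from 10819.02 to 11646.1 in shPkm1 and from 1019.57 to 1092.02 in the shPkm2-labelled libraries, and no marker of this list was at or under 3 counts in any group. Such a sum is carried by its most abundant members, and Myf5 of this list rose in the shPkm2-labelled libraries, from 11.56 and 13.44 TPM in shScr to 59.35 and 54.15. The part of these markers in the falls of the 10 genes was not tested. Sums of adipocyte markers (6 genes) were 7.63 to 8.03, 21.55 to 22.74 and 19.82 to 23.07 TPM in the same order, with Adipoq, Plin1 and Lep at or under 3 counts in every group. Sums of bone and cartilage markers (8 genes) were 17.91 to 23.18, 30.59 to 34.08 and 47.02 to 53.39 TPM, with Ibsp and Acan at or under 3 counts in every group. Macrophage and blood markers (5 of 8 in the table) summed to 11.81 to 18.36, 8.64 to 10.04 and 32.38 to 34.7 TPM in that order, with Lyz2 at or under 3 counts in shScr and in the shPkm2-labelled libraries. Neuronal markers (5 genes) summed to 15.84 to 29.36, 22.65 to 25.04 and 32.42 to 35.46 TPM, with Rbfox3 and Snap25 at or under 3 counts in every group, and endothelial markers (5 genes) to at most 0.41 in any library. Smooth muscle markers (6 genes, including Des of the muscle list) summed to between 9553.76 and 11833.11 TPM in shScr, between 7521.12 and 7913.19 in shPkm1, and between 3320.87 and 3384.15 in the shPkm2-labelled libraries.

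For each of the 9 tested genes, the tested genes with the most similar profile were found by the Euclidean distance between log2 CPM over the 6 libraries, each centred on its mean. The nearest to Klhl40 was Myh7, the slow myosin heavy chain, at a distance of 0.26. Nearest to Klhl41 were Hrc, a calcium-binding protein of the sarcoplasmic reticulum, at 0.25 and Cbfa2t3 at 0.26. Klhl30 and Trim55, the 2 called genes that fell least in the shPkm2-labelled libraries, shared Pfkm, the muscle phosphofructokinase, among their nearest genes, at 0.19 and 0.29. Trim54 was nearest to the inositol hexakisphosphate kinase Ip6k3 at 0.20, Asb2 to Slc44a4 at 0.50, Trim63 to Fras1 at 0.48 and Klhl31 to Best1 at 0.57. Fbxo32 was nearest to Rdh13, a retinol dehydrogenase, at 0.14 and to the growth factor gene Vegfb at 0.18, and Rdh13 stood at -0.99 in shPkm1 (adjusted p 3.53e-05) and at -0.17 in the shPkm2-labelled libraries (adjusted p 0.251). These distances describe 6 libraries in 3 groups and were not tested.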

How the data were processed

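Each row of the deposited table is 1 of 57920 RefSeq transcripts, with an NCBI gene number and, per the file headers, estimated counts, FPKM and TPM of the 6 libraries. The submitters' processing notes name mm10, HISAT, StringTie, Bowtie, RSEM and DESeq2, without versions or roles. Libraries were made by a commercial provider by its own protocol, per the labels' protocols. The estimated counts deposited by the authors were summed per gene (17558 genes, of which 17445 matched a symbol in the RefSeq table and 113 did not) and rounded. The TPM values deposited by the authors, scaled to length and library, were summed per gene as levels. The FPKM values deposited by the authors and their 9 columns of group means were not used.

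Testing used edgeR 4.0.16 in R 4.3.3 after filterByExpr (minimum count 10, minimum total 15), which left 12643 genes. A quasi-likelihood model with 1 coefficient per group and TMM scaling was fitted to all 6 libraries, and p-values were adjusted by Benjamini and Hochberg over all genes tested, with a threshold of 0.05. Tests were two-sided, and standard errors were derived from the log2 fold change and its F statistic. Permuting 2 against 2 libraries allows no p under 0.333, so tests rest on the model across genes. The procedure was tested on simulated counts. The 15 alternatives were DESeq2 size factors, library totals, no filter, a filter at a mean of 50 counts, the DESeq2 test (1.42.0), fits without the third group, a replicate block, limma 3.58.1 on log2(TPM + 1) and log2(TPM + 0.1), and leaving out each library in turn.

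Members and lists were chosen with earlier results of these data known. Genes named beside the members were a fixed set (Pkm, cullins, substrates, forkhead and myogenic factors), up to 2 called risen and 2 called fallen genes per list and comparison with shScr (mean of at least 50 counts), and the 2 nearest profiles of each member. A gene of the fixed set is not reported here. Asb10 and Asb16 were named after their values were seen. Fbxo40 was left out of the test by the filter. Promoters and gene positions came from RefSeq tables of GRCm38.p6 and exon overlaps from GENCODE. Figures were drawn with matplotlib 3.10.9.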

Additional observations from a re-analysis of the deposited data

How the results depend on the processing

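The counts of the 10 genes called in each direction kept their main values in all 15 alternatives, except that 9 instead of 8 were lower in the shPkm2-labelled libraries than in shScr in 2 of them: without a filter, where Fbxo40 was added, and without the first shScr library, where Fbxo32 was added. The value of Fbxo32 was the 1 that turned. In the shPkm2-labelled libraries against shScr it was -0.21 as reported, 0.12 with library totals, 0.23 with limma on log2(TPM + 1) and 0.25 with log2(TPM + 0.1), none of them called, and it ran from -0.26 to -0.15 when single libraries were left out. Library totals raised the median log2 fold change of all genes by 0.19, 0.32 and 0.13 in the 3 comparisons and the share of higher genes among those called from 50.3% to 65.8%, from 49.8% to 69.3% and from 48.4% to 61.3%. The replicate numbers did not pair the libraries: deviations of same-numbered libraries correlated at -0.026, 0.042 and 0.053. With the replicate block 7922, 8566 and 6682 genes were called, against 7984, 8602 and 6703, and no call among the 10 genes changed. Limma on log2(TPM + 1), which understates changes of low genes, moved the values in the shPkm2-labelled libraries against shScr to -2.05 for Klhl31, -4.62 for Trim63, -5.05 for Klhl40, -4.38 for Trim54, -4.85 for Asb2 and -6.10 for Klhl41, that of Klhl31 in shPkm1 to -0.87, and those between the hairpin groups from -3.46 to -2.37 for Trim63, from -2.74 to -1.19 for Klhl31 and from -5.10 to -4.01 for Klhl40, all still called. Depth limits Fbxo40 at 0 to 5 counts and Klhl31, Trim63 and Klhl40 at 13 to 31 counts in the shPkm2-labelled libraries.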

Other observations

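Ubiquitin and proteasome genes were examined beside the ligases, and how many were called lower depended on the scaling. Of 41 tested genes, 30 were lower and 1 higher than shScr in shPkm1 and 28 were lower and 4 higher in the shPkm2-labelled libraries, with medians of -0.44 and -0.50. With library totals the counts were 19 lower and 4 higher, then 12 lower and 11 higher, with medians of -0.24 and -0.17. With limma on log2(TPM + 1) they were 11 lower and 6 higher, then 9 lower and 12 higher, and both medians were -0.04. Psmc3, an ATPase subunit of the regulatory particle, was lower in both groups at -1.38 and -1.89 (edgeR, adjusted p 1.32e-06 and 4.09e-08). Psmc6, another ATPase subunit, was higher at 0.93 and 0.52 (adjusted p 3.89e-05 and 0.00294). Genes of autophagy and atrophy (18 tested, including Fbxo32 and Trim63) gave 8 lower and 1 higher, then 9 lower and 4 higher, with medians of -0.19 and -0.22. Both turned with limma on log2(TPM + 1), to 4 lower and 7 higher, then 3 lower and 7 higher, with medians of 0.19 and 0.22, and with library totals the counts were 7 lower and 3 higher, then 6 lower and 5 higher. Within this list Map1lc3a, a gene of the autophagosome membrane, was lower at -1.13 and -2.19 (adjusted p 2.38e-06 and 3.07e-09), and Bnip3l, a mitophagy receptor, was higher at 0.85 and 0.76 (adjusted p 7.2e-05 and 0.000147).

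Among 22 other ligases and kelch genes linked to muscle, 9 were lower and 5 higher in shPkm1 and 4 were lower and 9 higher in the shPkm2-labelled libraries, with medians of -0.10 and 0.13. The balance in shPkm1 turned with the scaling, to 7 lower and 9 higher with library totals (median 0.10) and to 5 lower and 11 higher with limma on log2(TPM + 1) (median 0.30). Klhl33 was at 0.41 and 0.48 TPM in shScr, 2.54 and 2.72 in shPkm1, and 0.7 and 0.69 in the shPkm2-labelled libraries. It was higher in shPkm1 alone of the comparisons with shScr, at 2.00 (adjusted p 4.86e-06) against 0.15 (adjusted p 0.621), and the hairpin groups differed by -1.86 (adjusted p 6.69e-06). Asb5, whose protein is made in muscle satellite cells, stood at -0.17 (adjusted p 0.2) in shPkm1 and was lower at -1.24 (adjusted p 7.65e-07) in the shPkm2-labelled libraries. Trim30a and Trim21, which are known as interferon-induced genes, were lower in both groups, Trim30a at -3.22 and -2.81 (adjusted p 3.2e-09 and 2.71e-09) and Trim21 at -2.61 and -2.29 (adjusted p 6.97e-08 and 7.58e-08). Fbxo5, an inhibitor of the anaphase-promoting complex, was higher at 1.35 and 2.95 (adjusted p 2.11e-06 and 3.67e-10).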
